A study of Mus musculus with 12 samples.

Results

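The 9 genes described here, Robo1, Robo2, Slit2, Slit3, Sema3a, Sema3g, Plxna2, Efnb1 and Efnb2, encode cues and receptors of the Slit-Robo, semaphorin-plexin and ephrin systems. Their rows were taken by symbol, and all 9 were found among the 23829 genes of the 20 week table, the 23777 genes of the 28 week table and the 22290 genes that both tables list. RNA-seq had been made from primary podocytes, the epithelial cells that wrap the glomerular capillaries of the kidney, of mice under a high-fat diet and streptozotocin model of diabetes (labelled HFD/STZ). The study asked how loss of NSD2, a histone H3K36 methyltransferase, changes transcription in these cells early and late in diabetic kidney disease.

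There were 4 groups of 3 libraries each. Controls were Cre-/Nsd2fl/fl and knockouts Cre+/Nsd2fl/fl, each at 20 and at 28 weeks of age, so both genotypes carried the floxed alleles and both were diabetic, and no group was without diabetes. The knockout is labelled as podocyte-specific, and the labels name no driver for Cre. Since only the knockouts carried Cre, its effects and those of Nsd2 loss cannot be told apart. The labels place all 12 libraries in batch 1 and leave it unsaid whether libraries within a group are different mice. The p-values thus reflect variation among libraries only, part of which may be technical. Total counts ran from 31405349 to 38989180 per library.

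Levels below are CPM (read counts scaled to a common library total) on TMM-scaled library sizes, and a gene is said to have risen or fallen where its Benjamini-Hochberg adjusted p over all genes tested was below 0.05 in edgeR's quasi-likelihood test. The targeted gene was checked first. Nsd2 stood at 94.2, 66.5 and 78.9 CPM in the 20 week controls and at 51.7, 34.0 and 44.9 CPM in the 20 week knockouts. At 28 weeks it stood at 87.1, 77.6 and 80.0 CPM in controls and at 35.2, 35.2 and 42.8 CPM in knockouts. The groups did not overlap at either age. The log2 fold change of Nsd2 was -0.88 (SE 0.21, adjusted p = 0.0402) at 20 weeks and -1.11 (SE 0.13, adjusted p = 0.00431) at 28 weeks. The 20 week call for Nsd2 was lost without control 1 (-0.75, adjusted p = 0.164), control 2 (-0.98, 0.0729), control 3 (-0.88, 0.0903), knockout 2 (-0.72, 0.0903) or knockout 3 (-0.88, 0.111). With all libraries kept, it was also lost under a filter of 1 CPM in 3 libraries (-0.93, adjusted p = 0.0562).

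The label was also checked against cell type markers. All 15 podocyte markers had reads in every library, although Nphs1, which encodes the slit diaphragm protein nephrin, lay between 0.914 and 15.2 CPM. Markers of other kidney cells were present too, and their levels differed between the groups. Some libraries need naming before the results. Among the 28 week knockouts, library 1 was the lowest for 7 of the 9 genes and had the lowest summed podocyte markers of all libraries, 869 CPM. The 28 week controls 2 and 3 differed far less than any other pair, with a mean chi-square over genes of 4.56 against 74.1 to 223 for the other 11 pairs within groups. Summing those controls as 1 library is therefore given as an alternative.

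Slit proteins are secreted ligands that bind Robo receptors and repel growing axons. In podocytes, SLIT2 acting through ROBO2 is known to reduce actin assembly downstream of nephrin. Class 3 semaphorins are secreted and most signal through neuropilins and A-type plexins, and podocytes are a known source of SEMA3A and SEMA3G. Ephrin-B proteins are membrane ligands of Eph receptors, and ephrin-B1 is known as a component of the slit diaphragm.

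Robo1 (chr16:72308306-73046095, plus strand) and Robo2 (chr16:73891839-74411825, minus strand) are neighbours on chromosome 16 in GRCm38, with 845743 bases and no protein-coding gene between them. Slit2 lies at chr5:47983138-48307733 and Slit3 at chr11:35121224-35708507. Sema3a lies at chr5:13125414-13602565, Sema3g at chr14:31217860-31230352 and Plxna2 at chr1:194618218-194816869. Efnb1 lies at chrX:99136130-99148991 and Efnb2 at chr8:8617434-8661242 on the minus strand, and the others are on the plus strand. In GENCODE M21 all 9 are protein-coding and none shares an exon base with another gene.

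The promoters of Robo1, Robo2 and Sema3g are shown because these genes had the calls that held without any 1 library at 20 weeks, and that of Efnb2 because it moved by less and missed the threshold. Each is the stretch of up to 250 bases before a RefSeq start (GRCm38.p6), printed 5′ to 3′ on the gene's strand and ended before the first exon base. Capitals mark any of 4 motifs searched on both strands: the GC box GGGCGG, the CCAAT box CCAAT, the TATA box TATAA and the TEAD motif GGAATG. The Robo1 window (chr16:72662899-72663148) belongs to a start 354843 bases inside the GENCODE gene, the Robo2 window (chr16:74411826-74412075) to the one of its 3 RefSeq starts that lies at the GENCODE gene start, the Sema3g window is chr14:31217623-31217859 and the Efnb2 window is chr8:8661243-8661492.
Robo1: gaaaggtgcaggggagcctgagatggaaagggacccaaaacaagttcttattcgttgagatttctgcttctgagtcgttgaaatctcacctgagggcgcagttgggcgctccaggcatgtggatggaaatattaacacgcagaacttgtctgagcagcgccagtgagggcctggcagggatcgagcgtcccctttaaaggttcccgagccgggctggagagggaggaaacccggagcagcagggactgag
Robo2: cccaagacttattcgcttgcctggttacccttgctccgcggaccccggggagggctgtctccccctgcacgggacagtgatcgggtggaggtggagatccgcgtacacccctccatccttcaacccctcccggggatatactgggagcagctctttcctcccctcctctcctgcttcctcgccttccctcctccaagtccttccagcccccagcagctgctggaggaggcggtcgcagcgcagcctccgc
Sema3g: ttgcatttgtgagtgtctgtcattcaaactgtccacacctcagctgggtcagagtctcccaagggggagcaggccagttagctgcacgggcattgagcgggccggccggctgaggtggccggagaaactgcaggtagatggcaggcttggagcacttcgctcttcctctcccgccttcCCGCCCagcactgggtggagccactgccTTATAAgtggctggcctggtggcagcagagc
Efnb2: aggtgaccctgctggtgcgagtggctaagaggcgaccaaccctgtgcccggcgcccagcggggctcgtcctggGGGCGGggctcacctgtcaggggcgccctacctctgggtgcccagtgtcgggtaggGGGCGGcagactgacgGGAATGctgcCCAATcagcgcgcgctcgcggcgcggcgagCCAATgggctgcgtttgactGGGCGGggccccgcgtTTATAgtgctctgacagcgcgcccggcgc
None of the 4 motifs was found in the Robo1 window or in this Robo2 window. The Sema3g window held a GC box on the minus strand and overlapping TATA matches on both strands. The Efnb2 window held all 4 motifs, with 3 GC boxes and 2 CCAAT boxes. Of 32851 RefSeq promoter windows of 250 bases, 32.7% held the GC box, 33.8% the CCAAT box, 22.8% the TATA box and 12.6% the TEAD motif. The windows held 11, 14, 8 and 27 CpG dinucleotides for Robo1, Robo2, Sema3g and Efnb2, against a median of 6 over all promoters. These matches are descriptions of the letters in the windows and not evidence of binding.

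At 20 weeks the knockouts had more RNA for both Robo receptors, Slit3 and Sema3g. These 4 of the 9 genes rose and none fell, while 4.79% of all 14853 genes tested rose, 5.13% fell and 9.92% did either. The 9 were chosen with earlier results of these data known, so this comparison is a description only. The median log2 fold change was 0.66 over the 9 genes and 0.01 over all genes tested. Of the 15 podocyte markers 8 rose and 0 fell, with 14 positive estimates, 1 negative and a median of 1.05. Their part in the values of the 9 was not tested. All 3 knockout libraries lay above all 3 controls for 7 of the 9, against 15.5% of all genes tested. The groups overlapped for Sema3a and Plxna2. Since these are bulk samples, fewer cells of a type and less RNA per cell cannot be told apart in any of these values.

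**Figure D1:**
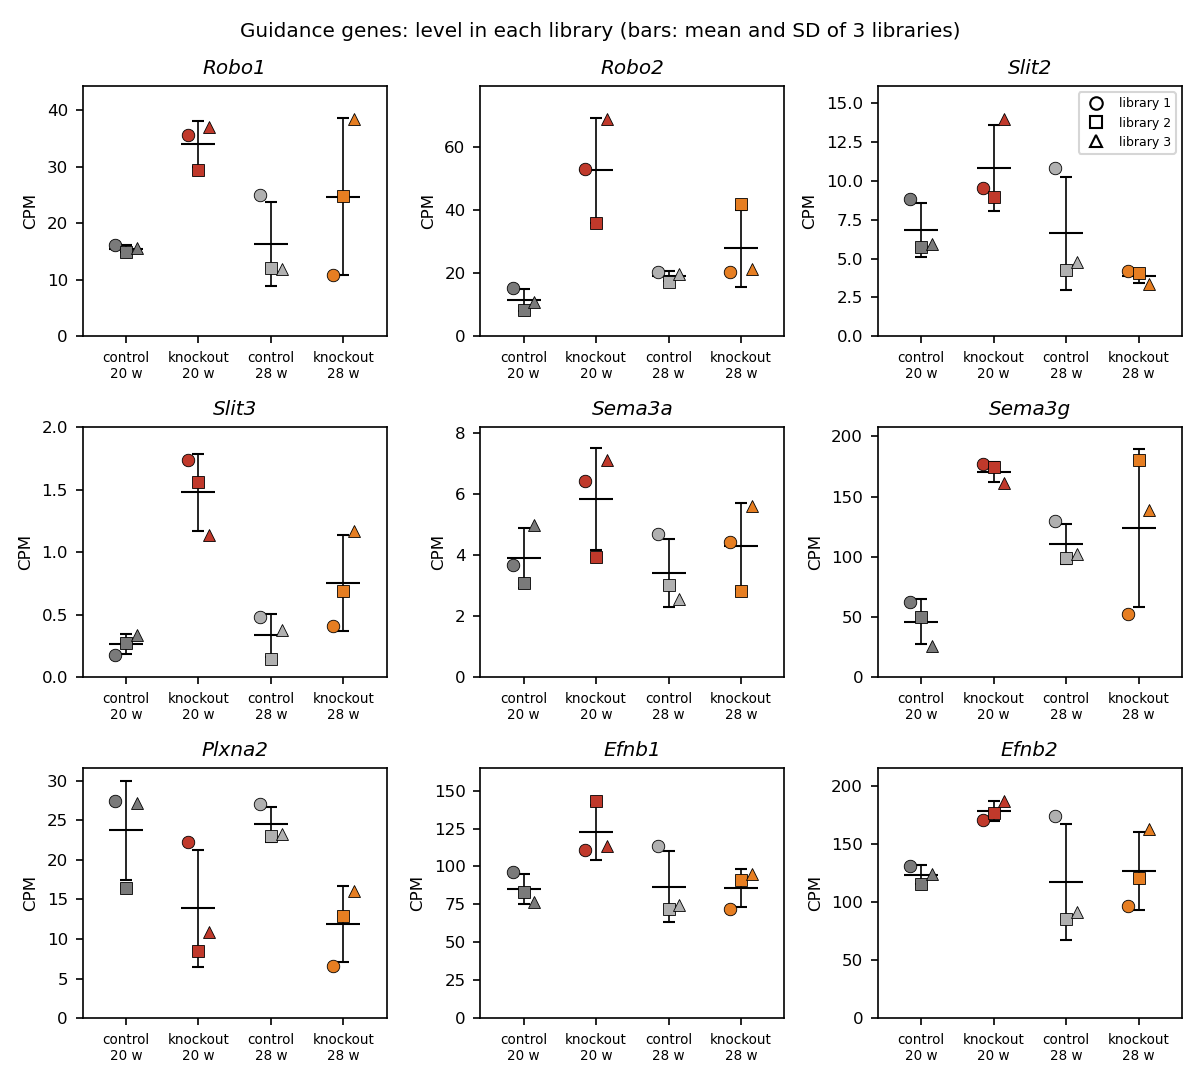
CPM of each of the 9 genes (vertical axis, linear, starting at 0) in the 4 groups, with 1 point per library and bars for the mean and SD of 3 libraries. All 20 week knockouts stand above all 20 week controls for every gene but Sema3a and Plxna2, and the 28 week knockouts are widely spread for Robo1 and Sema3g.

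Robo1 encodes a Slit receptor best known from axon guidance. It measured 16.1, 14.9 and 15.5 CPM in the 20 week controls, against 35.6, 29.4 and 37.0 CPM in the 20 week knockouts, so every knockout lay well above the narrow range of the controls. Robo1 rose 2.19-fold (log2 fold change 1.13, SE 0.17, adjusted p = 0.00766). It kept its call without each library in turn, with adjusted p up to 0.0494, and lost it in the model of all 12 libraries (1.10, adjusted p = 0.107).

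Robo2 encodes the Slit receptor with the known podocyte role. Its levels were 15.3, 8.48 and 10.9 CPM in the 20 week controls and 53.0, 35.7 and 68.9 CPM in the knockouts. The lowest knockout was more than double the highest control. Robo2 rose 4.54-fold (2.18, SE 0.31, adjusted p = 0.00648), and without each library in turn the log2 fold change stayed between 1.96 and 2.43.

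At 28 weeks neither Robo gene passed the test. Robo1 was 25.0, 12.2 and 11.9 CPM in controls, against 10.8, 24.8 and 38.5 CPM in knockouts, so knockout 1 lay below every control and knockout 3 above every control (0.60, SE 0.51, adjusted p = 0.461). Robo2 was 20.2, 17.2 and 19.6 CPM in controls, against 20.5, 41.7 and 21.2 CPM in knockouts. The knockouts lay above the controls, but for libraries 1 and 3 by little (0.55, SE 0.30, 95% interval -0.16 to 1.26, adjusted p = 0.248). Such separation upward was seen in 19.3% of all genes tested at 28 weeks.

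Slit2 encodes the ligand of the pair known in podocytes. At 20 weeks it measured 8.84, 5.76 and 5.95 CPM in controls, against 9.54, 8.96 and 14.0 CPM in knockouts. The knockouts lay above the controls, but control 1 nearly reached 2 of them (0.66, SE 0.28, adjusted p = 0.191). At 28 weeks Slit2 measured 10.8, 4.29 and 4.79 CPM in controls, against 4.23, 4.09 and 3.40 CPM in knockouts. Here all knockouts lay below all controls, as for 22.8% of all genes tested, and control 1 stood apart from the other controls (-0.76, SE 0.39, adjusted p = 0.228).

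Slit3 encodes a related Slit ligand and was the least abundant of the 9. At 20 weeks it had 7, 10 and 13 reads in controls (0.181, 0.275 and 0.342 CPM) and 63, 55 and 40 reads in knockouts (1.74, 1.56 and 1.14 CPM). All knockouts were several times above all controls, at low counts. Slit3 rose 5.50-fold (2.46, SE 0.43, adjusted p = 0.0123), and the call was lost without control 1 (2.23, adjusted p = 0.0590) or control 2 (2.50, 0.0527). At 28 weeks it had 19, 6 and 15 reads in controls and 13, 21 and 41 in knockouts, with overlap (1.17, SE 0.59, adjusted p = 0.216).

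Sema3g encodes a class 3 semaphorin known from podocytes and endothelium. It measured 62.8, 49.8 and 25.8 CPM in the 20 week controls and 177, 174 and 161 CPM in the 20 week knockouts. The knockouts were close to each other and all far above the controls. Sema3g rose 3.70-fold (1.89, SE 0.30, adjusted p = 0.00982), and without each library in turn the log2 fold change stayed between 1.60 and 2.15 with the call kept. At 28 weeks it measured 129, 99.3 and 102 CPM in controls, against 52.5, 181 and 139 CPM in knockouts. Knockouts 2 and 3 lay above every control and knockout 1 below every control (0.17, SE 0.42, 95% interval -0.84 to 1.17, adjusted p = 0.822).

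Sema3a encodes a semaphorin whose excess is known to disturb podocyte foot processes. At 20 weeks it measured 3.68, 3.08 and 5.00 CPM in controls, against 6.44, 3.94 and 7.13 CPM in knockouts, with knockout 2 within the control range (0.57, SE 0.33, adjusted p = 0.330). At 28 weeks the controls measured 4.68, 3.02 and 2.56 CPM and the knockouts 4.45, 2.83 and 5.63 CPM, overlapping again (0.33, SE 0.36, adjusted p = 0.567). Sema3a had 86 to 251 reads per library, and its 95% intervals ran from -0.17 to 1.32 at 20 weeks and from -0.53 to 1.19 at 28 weeks.

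Plxna2 encodes plexin A2, a semaphorin receptor, and its estimate was the sole negative one at 20 weeks. It measured 27.5, 16.5 and 27.2 CPM in the 20 week controls and 22.3, 8.51 and 10.8 CPM in the knockouts, with knockout 1 inside the control range (-0.77, SE 0.38, adjusted p = 0.256). Without knockout 1 it passed the test (-1.29, adjusted p = 0.0228). At 28 weeks the controls were close, at 27.0, 23.1 and 23.3 CPM, and the knockouts at 6.64, 12.9 and 16.1 CPM all lay below them. The log2 fold change was -1.04 (SE 0.32, 95% interval -1.80 to -0.28, adjusted p = 0.0622). This missed the threshold, and 5 of 15 alternatives called it. Those were DESeq2 (-1.04, adjusted p = 0.0133), deposited FPKM with a pseudocount of 0.1 (-1.10, 0.0499) or 1 (-0.62, 0.0298), and leaving out knockout 1 (-0.76, 0.0308) or knockout 3 (-1.37, 0.0379). The rest did not call it. Their adjusted p was 0.147, 0.137 and 0.141 without control 1, 2 or 3, and 0.152 without knockout 2. It was 0.139 with controls 2 and 3 summed and 0.154 with a replicate block.

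Efnb1 and Efnb2 encode ephrin-B1 and ephrin-B2, and in CPM were among the most strongly read of the 9. Efnb1 measured 96.3, 82.9 and 76.8 CPM in the 20 week controls and 111, 143 and 113 CPM in the knockouts. Efnb2 measured 132, 115 and 124 CPM in the 20 week controls and 171, 177 and 188 CPM in the knockouts. For both genes all knockouts lay above all controls, by a smaller factor than for the Robo genes. Neither passed the test, with 0.52 (SE 0.18, adjusted p = 0.107) for Efnb1 and 0.53 (SE 0.14, adjusted p = 0.0575) for Efnb2. DESeq2 called Efnb2 higher (0.53, adjusted p = 0.0172).

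At 28 weeks Efnb1 measured 114, 71.9 and 74.5 CPM in controls, against 71.9, 90.8 and 94.99 CPM in knockouts (-0.01, SE 0.21, 95% interval -0.53 to 0.50, adjusted p = 0.974). Efnb2 measured 175, 85.5 and 91.4 CPM in controls, against 97.0, 121 and 163 CPM in knockouts (0.12, SE 0.33, adjusted p = 0.846). In both, control 1 was the highest of all 6 libraries of that age.

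At 28 weeks, then, 0 of the 9 genes passed edgeR's test, while 21.2% of all 15011 genes tested did, 9.33% higher and 11.9% lower. At an unadjusted p under 0.05 there was 1, Plxna2, which DESeq2 also called. Estimates were positive for 6 and negative for 3, with a median of 0.17 over the 9 and 0.07 over all genes tested. The signs of estimates near 0, such as that of Efnb1, changed between alternatives. Control 1 was the highest 28 week control for all 9 genes, and knockout 1 the lowest 28 week knockout for 7 of the 9. The 28 week estimates moved both ways when 1 library was left out. That of Robo1 ran from 0.09 (without knockout 3) to 1.04 (without control 1), that of Robo2 from 0.12 (without knockout 2) to 0.71 (without knockout 1), that of Slit3 from 0.67 (without knockout 3) to 1.53 (without control 1) and that of Sema3g from -0.20 (without knockout 2) to 0.52 (without knockout 1), and none of these passed the test. With controls 2 and 3 summed, still 0 of the 9 passed. Of all genes, 1299 of 15291 tested then passed, against 3183 of 15011 with those controls kept apart.

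The difference of the knockout effect between ages was tested itself, over all 12 libraries. Estimates were negative for all 9 genes, that is, lower at 28 than at 20 weeks, with a median of -0.53 against 0.05 over all genes. The 15 podocyte markers were all negative as well, with a median of -0.92, and their part in the values of the 9 was not tested. No gene passed edgeR's test, 0% of 15662, although 1428 had an unadjusted p under 0.05 and DESeq2 called 25. Among the 9, Sema3g (-1.70, SE 0.57), Robo2 (-1.63, SE 0.48) and Slit2 (-1.42, SE 0.51) had an unadjusted p under 0.05, each with an adjusted p of 0.538, and DESeq2 called 0 of the 9. So the 20 week calls of Robo1, Robo2, Slit3 and Sema3g were not shown to differ from their 28 week values. The negative sign was not kept by Plxna2 without knockout 1 of 20 weeks (0.28) or of 28 weeks (0.0047), nor by Sema3a without control 1 of 28 weeks (0.04).

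**Figure D2:**
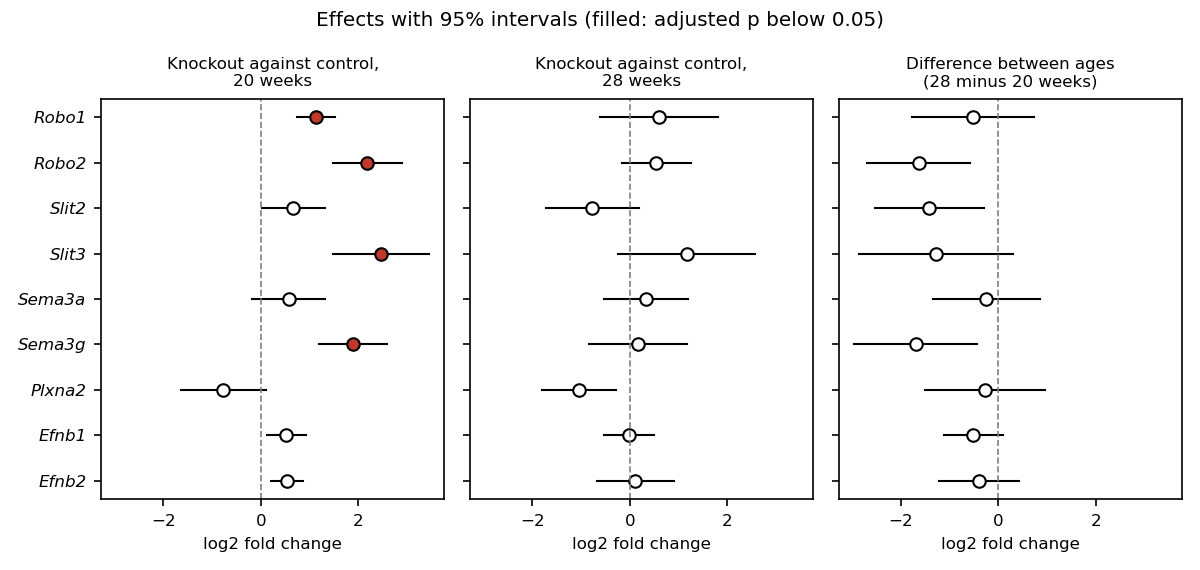
Log2 fold change of each gene (points) with its 95% interval (lines) for knockout against control at 20 and 28 weeks and for the difference between ages, filled where adjusted p was below 0.05. Robo1, Robo2, Slit3 and Sema3g are filled at 20 weeks, no gene is filled at 28 weeks, and all 9 points of the difference lie left of 0.

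Change with age was tested within each genotype. The ages were deposited in separate tables, so age and table cannot be told apart. In controls 0% of 15662 genes passed edgeR's test (466 at an unadjusted p under 0.05, 1 by DESeq2). Sema3g had the largest estimate of the 9 there, 1.26 (SE 0.41, adjusted p = 1.00), with every 28 week control above every 20 week control. In knockouts 0% passed as well (1759 at an unadjusted p under 0.05, 36 by DESeq2). All 9 estimates were negative in knockouts, with a median of -0.47 against 0.04 over all genes and -0.80 over the podocyte markers (15 of 15 negative), and that of Plxna2 turned positive without knockout 1 of 20 weeks (0.34) or of 28 weeks (0.06). Slit2 had the largest, -1.45 (SE 0.36, adjusted p = 0.429), with every 28 week knockout below every 20 week knockout, and was called by DESeq2 (-1.46, adjusted p = 0.0334).

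Levels of different genes were compared per length, with the FPKM the authors deposited. In the 20 week controls Efnb1 was highest at 26.3 ± 4.03 FPKM (SD, n = 3), followed by Efnb2 at 11.7 ± 1.12 and Sema3g at 10.4 ± 4.52, which overlapped. Plxna2 followed at 1.66 ± 0.461 and Robo1 at 0.895 ± 0.0625. Slit2 (0.599 ± 0.174), Robo2 (0.527 ± 0.177) and Sema3a (0.311 ± 0.0730) formed a run in which each overlapped the next, and Slit3 was lowest at 0.0547 ± 0.0150.

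In the 20 week knockouts the order differed. Sema3g (35.8 ± 1.23 FPKM) stood level with Efnb1 (35.3 ± 4.85), above Efnb2 (15.8 ± 0.980). Robo2 (2.24 ± 0.742) and Robo1 (1.84 ± 0.241) overlapped each other and stood above Plxna2 (0.909 ± 0.479), Slit2 (0.887 ± 0.242), Sema3a (0.436 ± 0.131) and Slit3 (0.286 ± 0.0568). At 28 weeks the mean of Sema3g was 24.5 ± 3.10 FPKM in controls, where its libraries lay among those of Efnb1 (26.5 ± 6.47), and 26.1 ± 13.8 FPKM in knockouts, where they ran from 11.0 to 37.8 FPKM, beyond Efnb1 (20.6 to 27.9) on both sides. Plxna2 stood above both Robo genes in the 28 week controls (1.70 ± 0.114 FPKM), whereas in the knockouts it overlapped with Robo2 (0.783 ± 0.323 against 1.19 ± 0.508). The order depends on the length used for each gene. The lengths implied by the deposited FPKM differed from the GENCODE exon union for Slit2 (11872 against 25433 bases), Efnb2 (10924 against 6855) and Robo2 (22768 against 16983). With GENCODE lengths Slit2 fell from place 6 to 8 in the 20 week controls, and Efnb2 (17.1 to 20.6 FPKM) no longer overlapped with Sema3g (5.72 to 14.9) there. With those lengths Plxna2 (1.40 to 1.58 FPKM) overlapped with Robo1 (0.743 to 1.52) in the 28 week controls, and no longer overlapped with Robo2 in the 28 week knockouts (0.373 to 0.922 against 1.16 to 2.37).

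**Figure D3:**
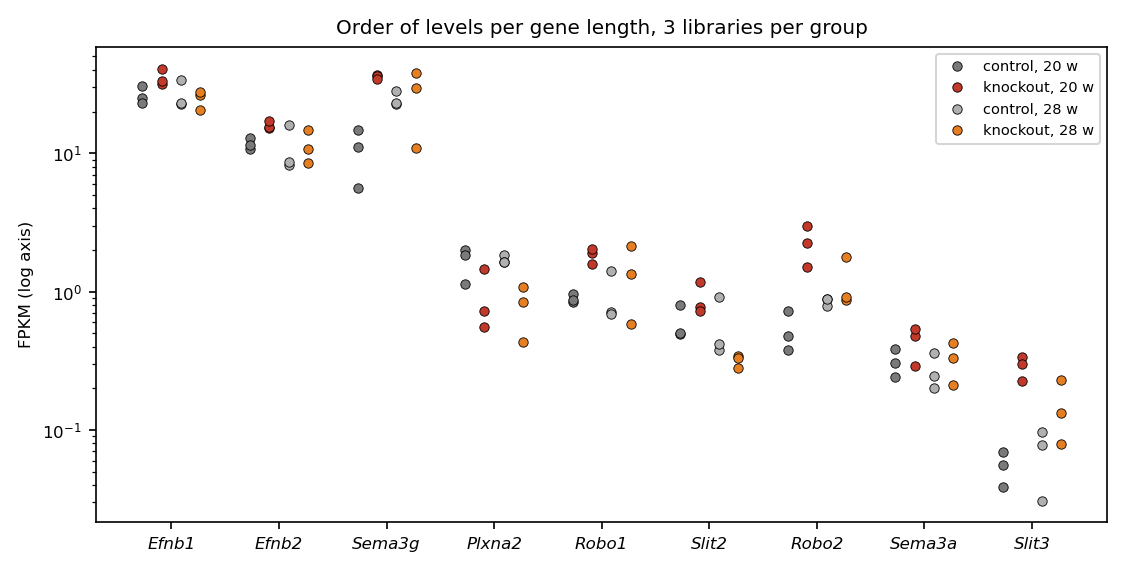
Deposited FPKM of the 9 genes on a log axis, with 1 point per library and 3 per group. Efnb1, Efnb2 and Sema3g lie above 5 FPKM in every library and the other 6 genes below 3.

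The other genes of the 3 systems were followed from lists without the 9. Of the 10 other Slit-Robo genes, 0 rose and 1 fell at each age, with medians of 0.04 at 20 weeks and -0.00 at 28 weeks. Of all genes tested 4.79% rose and 5.13% fell at 20 weeks, and 9.33% rose and 11.9% fell at 28 weeks, so 1 of 10 is near the share of all genes. The one that fell was Srgap3, a GTPase-activating protein that binds Robo receptors. It measured 47.9, 35.5 and 39.3 CPM in the 20 week controls and 28.3, 16.6 and 19.7 CPM in the knockouts (-0.92, SE 0.23, adjusted p = 0.0453), a call lost without 5 of the 6 libraries in turn, with adjusted p up to 0.184 (without control 1). At 28 weeks Srgap3 stood at 52.5, 41.0 and 45.2 CPM in controls, against 17.0, 17.9 and 20.9 CPM in knockouts (-1.31, SE 0.15, adjusted p = 0.00438).

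Of 36 other semaphorin-plexin genes tested, 6 rose and 0 fell at 20 weeks (median 0.20), and 3 rose and 10 fell at 28 weeks (median -0.12). The shares of all genes were 4.79% and 5.13% at 20 weeks and 9.33% and 11.9% at 28 weeks, so the 3 that rose at 28 weeks are near the share of all genes. The 6 that rose at 20 weeks were Dpysl3, a cytoskeletal protein of the CRMP family (1.21, adjusted p = 0.00648), the class 3 semaphorins Sema3e (1.08, 0.0246), Sema3d (2.00, 0.0281) and Sema3b (1.11, 0.0468), the actin-oxidising enzyme Mical1 (0.74, 0.0347) and the receptor Plxna4 (1.06, 0.0377). Dpysl3 kept its call without each library in turn, and each of the other 5 lost it without 4 or more of them, with adjusted p up to 0.103 for Sema3e (without control 1), 0.0925 for Sema3d (without knockout 3), 0.152 for Sema3b (without control 1), 0.142 for Mical1 (without control 2) and 0.138 for Plxna4 (without control 1).

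At 28 weeks the semaphorin Sema3d was higher again, at 2.02, 2.24 and 2.18 CPM in controls, against 8.49, 11.9 and 12.9 CPM in knockouts (2.37, adjusted p = 0.00326). The other two that rose were Nrp1, which encodes the semaphorin co-receptor neuropilin 1 (0.50, adjusted p = 0.0424), and Dpysl3 (0.81, 0.0485), both named after their values were seen. Each lost its call without any 1 library other than knockout 1, with adjusted p up to 0.169 for Nrp1 (without control 2) and 0.162 for Dpysl3 (without control 3). Among the 10 that fell were Sema6a, a transmembrane semaphorin that binds plexin A2 (-4.32, adjusted p = 0.00446), Dpysl5 of the CRMP family (-4.51, 0.00389), Sema3f (-2.07, 0.00343), Sema4a (-1.37, 0.00525) and Mical3 (-0.79, 0.00730). Sema6a measured 77.5, 55.0 and 55.5 CPM in the 28 week controls and 3.42, 1.19 and 4.74 CPM in the knockouts. Its 20 week knockouts were at 17.0, 2.98 and 3.33 CPM against 36.1, 35.4 and 25.6 CPM in controls, which did not pass the test (-2.06, adjusted p = 0.0854).

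Of 20 other ephrin-Eph genes tested, 3 rose and 0 fell at 20 weeks (median -0.44), and 1 rose and 9 fell at 28 weeks (median -0.90), against 4.79% higher and 5.13% lower of all genes at 20 weeks and 9.33% and 11.9% at 28 weeks. The 3 that rose at 20 weeks were Pdzrn3, a ubiquitin ligase with PDZ domains (1.89, adjusted p = 0.00338), and the Eph receptors Epha3 (2.44, 0.0199) and Epha6 (2.27, 0.0267). Pdzrn3 kept its call without each library in turn. Epha3 lost it without 3 of them, with adjusted p up to 0.0958 (without control 1), and Epha6 without 4, up to 0.0860 (without knockout 3). Epha3 was the 1 that rose at 28 weeks (1.71, adjusted p = 0.0277), named there after its values were seen, and this call was lost without control 1, 2 or 3, with adjusted p up to 0.1002 (without control 2).

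Receptors that bind B-type ephrins were among the 9 that fell at 28 weeks: Ephb2 (-3.90, adjusted p = 0.00702), Ephb3 (-1.35, 0.0101), Ephb4 (-0.98, 0.0107) and Epha4 (-2.29, 0.00191), which binds both ephrin classes. Ephb2 measured 52.3, 38.2 and 38.3 CPM in the 28 week controls and 1.66, 1.42 and 5.51 CPM in the knockouts, while the levels of the ligand genes Efnb1 and Efnb2 overlapped between the same groups. Epha2, an A-type receptor (-1.16, adjusted p = 0.00605), and Grip1, a scaffold protein with PDZ domains that binds B-type ephrins (-2.14, 0.00695), fell as well. Apart from Nrp1, Dpysl3 and Epha3, the 13 genes named from these lists at 28 weeks kept their calls without each library in turn. None of the 3 lists had a gene called for the difference between ages by edgeR.

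**Figure D4:**
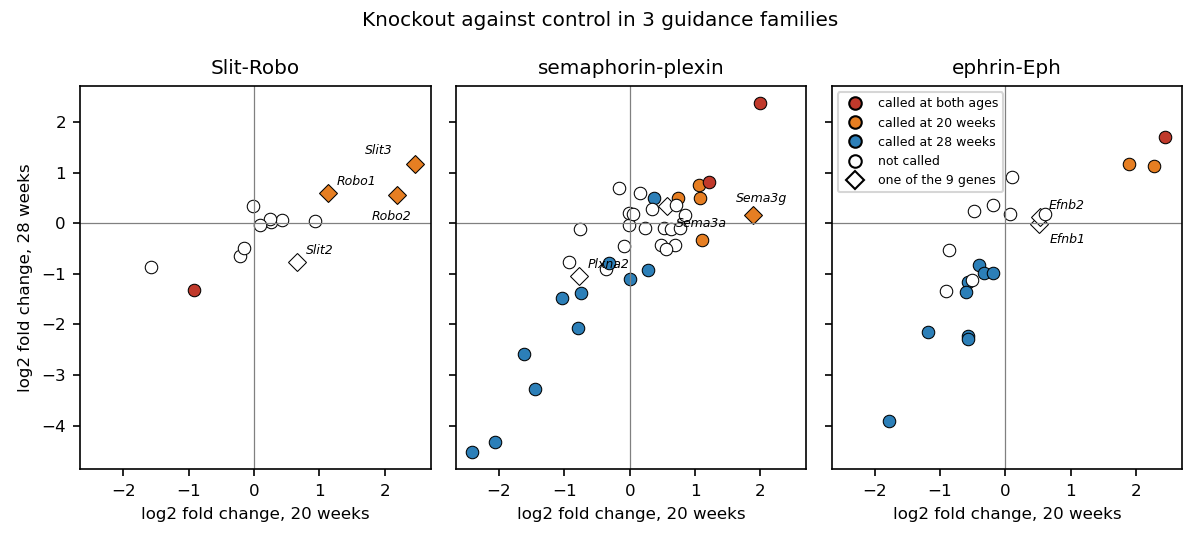
Log2 fold change at 20 weeks (horizontal) against 28 weeks (vertical) for the tested genes of the 3 systems, coloured by the age at which they passed the test, with diamonds for the 9 genes. Robo1, Robo2, Slit3 and Sema3g are called at 20 weeks alone, and most genes called at 28 weeks lie below 0 on the vertical axis.

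Over the 12 libraries, the genes most like each of the 9 in log2 CPM were named by Pearson's r from 10417 candidates (10418 for Slit3 and Sema3a), as a description in which libraries share groups and preparation. Robo1 was most like Lclat1, Col4a1 and Col4a2 (r = 0.98 each), the latter 2 being collagen IV chains. Robo2 was most like Enpep (0.98), Rassf9 (0.97) and Cep83os (0.96). Slit2 was most like Dab2 (0.95), Nemp1 (0.93) and Wdfy3 (0.92), Slit3 like Faf2 (0.95), Nucb1 (0.94) and Gpc4 (0.94), and Sema3a like Pcdh7 (0.87), Znrf3 (0.85) and Marcks (0.84). Sema3g was most like Itga8 (0.93), an integrin of mesangial cells, Limch1 (0.91) and Vti1a (0.89). Plxna2 was most like Cpm (0.99), Abl2 and Ssh2 (0.98 each), Efnb1 like Farp1 (0.99), Tmem248 and Gba2 (0.98 each), and Efnb2 like Mon2, Fat1 and Entpd7 (0.99 each). Among the 9 themselves r was highest for Robo1 with Efnb2 (0.91), Efnb1 with Efnb2 (0.89), Robo1 with Slit3 (0.84) and Robo2 with Sema3g (0.81). It was 0.68 for Robo1 with Robo2, and negative for Plxna2 with 7 of the 8 others, down to -0.42 with Slit3.

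Markers of several cell types moved with the groups. At 20 weeks 8 of 15 podocyte markers rose and 0 fell, against 4.79% and 5.13% of all genes tested, and their summed level was 1029 to 1676 CPM in controls, against 2295 to 2959 CPM in knockouts. Of 12 smooth muscle, pericyte and mesangial markers 9 rose, with sums of 4281 to 4825 CPM in controls, against 9680 to 13612 CPM in knockouts. The summed tubule and collecting duct markers were 1769 to 2618 CPM in controls, against 107 to 707 CPM in knockouts, where Slc34a1 and Aqp2 were at 0 in all 3 libraries and Umod and Slc12a3 in 2. Only 8 of these 12 markers passed the filter on low counts, and 1 was at 0 in control 2 and 1 in control 3. The parietal epithelial sums were 1947 to 4124 CPM in controls, against 543 to 1910 CPM in knockouts, the endothelial sums 104 to 141 and 135 to 179 CPM, and the leukocyte sums 88.0 to 384 and 253 to 444 CPM. Of the 10 leukocyte markers tested, 0 rose and 0 fell. Their estimates were positive for 4 and negative for 6, with a median of -0.54, so most did not follow the sum.

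At 28 weeks the podocyte sums overlapped, at 1379 to 2361 CPM in controls, against 869 to 2472 CPM in knockouts, and so did the endothelial sums, at 139 to 190 and 78.2 to 241 CPM. The smooth muscle, pericyte and mesangial sums were 2919 to 3189 CPM in controls, against 6977 to 15697 CPM in knockouts, and the leukocyte sums 87.9 to 103 and 615 to 847 CPM, with Cd3e at 0 in all 3 knockouts. Of the 12 leukocyte markers 10 passed the filter on low counts, and 1 was at 0 in control 3. Tubule sums were 2746 to 2993 and 43.4 to 1303 CPM, and parietal sums 2296 to 4885 and 307 to 6586 CPM. The markers of a set did not all move together. Of 12 smooth muscle, pericyte and mesangial markers 5 rose and 1 fell, and of 10 leukocyte markers tested 3 rose and 0 fell. Of 15 podocyte markers 0 rose and 2 fell, and of 12 endothelial markers 0 and 1. Of 10 tubule markers tested 0 rose and 2 fell, and of 8 parietal markers 0 and 2 (7 negative estimates). Of all genes tested 9.33% rose and 11.9% fell. Knockout 1 had the lowest podocyte and endothelial sums of the 28 week knockouts and the highest tubule and parietal sums. It was also the library with the lowest Robo1, Sema3g and Plxna2 of that group. The part of these markers in the results on the 9 genes was not tested.

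**Figure D5:**
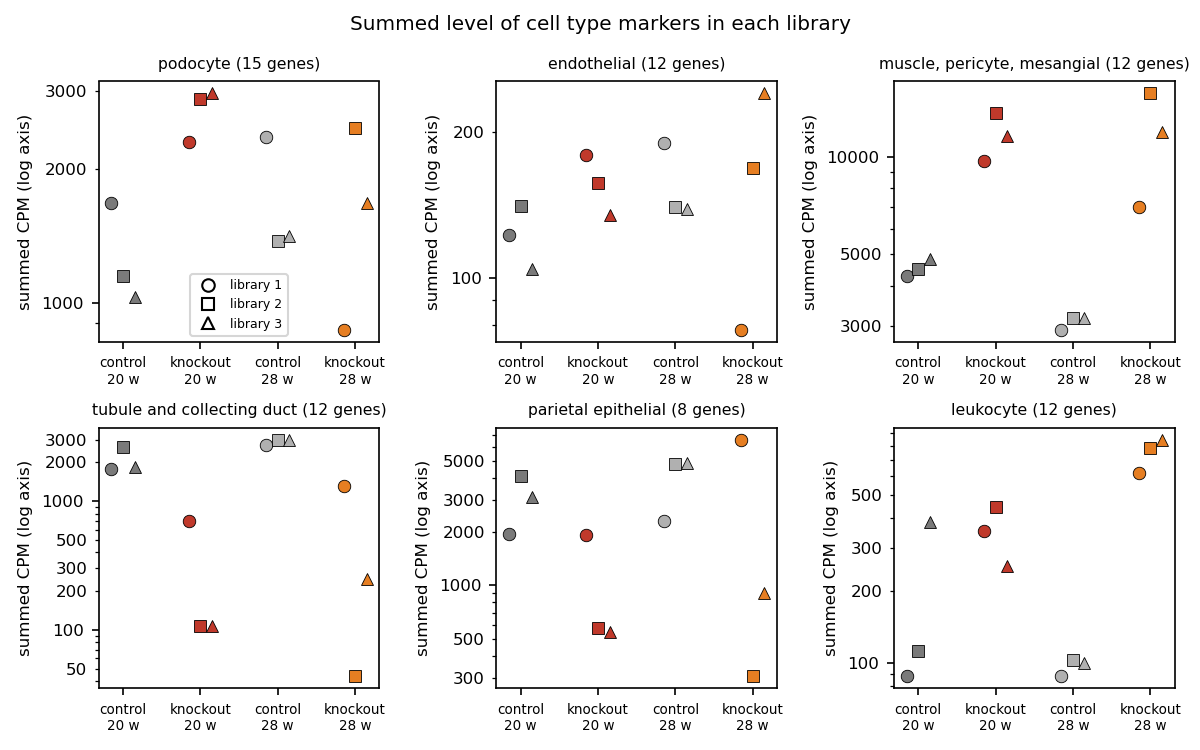
Summed CPM of the markers of 6 cell types (log axes) in each library of the 4 groups. Podocyte sums are higher in the 20 week knockouts than in the 20 week controls and overlap at 28 weeks, smooth muscle, pericyte and mesangial sums are higher in the knockouts at both ages, and knockout 1 of 28 weeks has the lowest podocyte sum.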

How the data were processed

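Libraries were made from total RNA with the SMARTER mRNA-Seq kit, per the labels' protocols. The authors deposited raw read counts and FPKM per gene in 1 table per age, per the file headers. The submitters' processing notes name GRCm38 and mm10. The aligner, counter, gene annotation and strand setting are given in none of those sources. Counts were filtered with filterByExpr, scaled by TMM and tested with edgeR 4.0.16 (quasi-likelihood F test, R 4.3.3), each age alone. The difference between ages and the age contrasts came from 1 model of 12 libraries over genes in both tables. P-values were Benjamini-Hochberg adjusted over all genes tested, with a threshold of 0.05. SEs were taken from the F statistic, as the absolute log2 fold change over its square root. Total counts of 31405349 to 38989180 limit precision mostly for Slit3. The scripts were tested on simulated data.

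Named genes were Nsd2, the 9 genes, up to 6 called genes by smallest p for each list and age, and the 3 genes most like each of the 9 among genes whose mean reached 5 CPM (log2 with a prior count of 2), passing over unnamed genes. The 9 genes and the lists were chosen with earlier results of these data known. Alternatives were DESeq2 1.42.0, RLE scaling, other filters, deposited FPKM in limma 3.58.1 on the log2(FPKM + pseudocount) scale, which understates changes of low genes, a model of 12 libraries, a replicate block, summed controls and leaving out each library. Promoters are from RefSeq, GRCm38.p6, where all 9 genes matched, and gene positions from GENCODE M21. Protein sequences were not used here.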

Additional observations from a re-analysis of the deposited data

How the results depend on the processing

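The number of genes called at 20 weeks was 1473, 2400 in DESeq2, and 517 to 2023 when 1 library was left out (517 without control 1, 602 without control 2, 553 without knockout 3, 663 without knockout 2). At 28 weeks it was 3183, 1299 with controls 2 and 3 summed, and 1266 to 3374 when 1 library was left out (1973 without control 1, 1288 without control 2, 1266 without control 3, 2057 without knockout 2). Of the 9 genes, 4 were called higher at 20 weeks, 5 in DESeq2, 3 in the model of 12 libraries and 3 to 4 when 1 library was left out. The number called lower at 20 weeks was 0, and 0 to 1 when 1 library was left out. At 28 weeks it was 0, and 1 in DESeq2, 1 on FPKM with either pseudocount and 0 to 1 when 1 library was left out, in each case Plxna2. DESeq2 called 25 genes for the difference between ages, 1 for age in controls and 36 for age in knockouts, of which 1 was among the 9. For age in knockouts 1 gene passed edgeR's test without knockout 1 of 28 weeks and 4 without knockout 2. On FPKM with a pseudocount of 1 the 20 week log2 fold changes shrank to 0.58 for Robo1, 1.07 for Robo2 and 0.29 for Slit3, with calls kept. No call of Nsd2, the 9 genes or the named list genes changed sign under any alternative that was run.

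For control and knockout libraries with the same number, deviations from the group means had r = -0.10, 0.32 and -0.17 at 20 weeks and -0.57, -0.10 and -0.47 at 28 weeks. With 3 libraries per group these deviations depend on one another, so the values cannot decide whether the numbers pair the libraries. With a replicate block 4 of the 9 were called higher at 20 weeks, and of all genes 1164 at 20 weeks and 332 at 28 weeks. Nsd2 then missed the threshold at 28 weeks (-1.12, adjusted p = 0.0526), as did 9 of the 13 list genes named there by the rule, and Nrp1, Dpysl3 and Epha3. Depth limits Slit3 most, with 6 to 63 reads per library.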
